A study of Saccharomyces cerevisiae with 4 samples.

Results

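The 7 genes that make, dephosphorylate, scaffold or break down trehalose in *Saccharomyces cerevisiae* were followed through a cell wall stress experiment in a *mid2* mutant. *TPS1* (YBR126C), *TPS2* (YDR074W), *TPS3* (YMR261C) and *TSL1* (YML100W) encode the trehalose synthase complex, and *NTH1* (YDR001C), *NTH2* (YBR001C) and *ATH1* (YPR026W) encode trehalases. They were taken by name, as 7 of 6172 genes in the table. Of these, 6 had a value on all 4 arrays and were tested, whereas *ATH1* was blank on every array.

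Each array compared RNA of *mid2* cells after 3 h with zymolyase at 0.8 units per ml with RNA of untreated *mid2* cells split from the same culture. All cells were of the BY4741 laboratory background and grew in rich medium (YEPD) at 24 °C. Zymolyase is an enzyme preparation that digests cell wall glucan, and Mid2 spans the plasma membrane and reports wall damage to the cell wall integrity pathway, so treated and untreated cells alike lacked this sensor. Total RNA of 2 cultures was hybridised in both dye orientations, which gave 4 arrays. Arrays 1 and 3 carried the treated RNA in Cy3, whereas arrays 2 and 4 carried it in Cy5, and the culture behind each array is not stated. Cells with intact *MID2* were not analysed here, so the values describe the mutant alone.

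Trehalose is a disaccharide of glucose that yeast stores and that protects proteins and membranes under heat, drying and other stress. Tps1 joins UDP-glucose and glucose 6-phosphate to trehalose 6-phosphate, Tps2 removes the phosphate, and Tps3 and Tsl1 are regulatory subunits that hold the complex together. Nth1 is the main neutral trehalase of the cytosol and is switched on by protein kinase A, Nth2 is its paralog, and Ath1 is the acid trehalase that allows growth on trehalose from outside the cell. Several of these genes carry stress response elements bound by the transcription factors Msn2 and Msn4, and general stress is known to raise synthesis and trehalase transcripts alike.

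Values are log ratios, taken as base 2, of zymolyase-treated over untreated cells. The sign is likely rather than stated. It was set from 10 cell wall stress genes known to be induced by zymolyase, none of them a trehalose gene. Their median was 1.65 to 2.35 on every array. Of these anchor genes, *FKS2* read 1.31, −1.57, 1.57 and 0.07 on arrays 1 to 4. The list was chosen with earlier results of these data known, so it is not an independent check of the sign. Of 3299 genes tested, 91 passed upward and 46 downward (limma, Benjamini-Hochberg adjusted p under 0.05 under both possible pairings of arrays into cultures). *MID2* had no value on any array, which leaves the genotype unchecked. For the untreated RNA of array 4 a comment label gives *hog1* in place of *mid2*, although its genotype label gives *mid2*, so results are also given without that array. *HOG1* itself read 0.20, 0.55, −0.15 and 0.26 on arrays 1 to 4. The arrays' medians over the genes tested were −0.02, −0.37, −0.04 and −0.07, and array 4 had the narrowest spread (median absolute deviation 0.16, against 0.31 to 0.37 on the others). Spot brightness over background is unknown, and precision is limited by there being 4 arrays.

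After 3 h of zymolyase, the transcripts for the phosphatase subunit Tps2 and the regulatory subunit Tsl1 rose, by 2.86-fold and 2.62-fold. Those for the synthase Tps1, the regulatory subunit Tps3 and both measured neutral trehalases did not pass the test. *NTH1* averaged 1.61-fold with nearly the same value on every array, and *TPS1* averaged 1.45-fold. Upward calls thus covered 2 of the 6 genes tested, beside a background of 2.76% of all genes, and 0 of the 6 passed downward, beside 1.39%. The median of the 4 synthesis genes was 0.96 on the log2 scale and that of the 2 trehalases 0.42, against −0.14 for all genes tested.

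**Figure D1:**
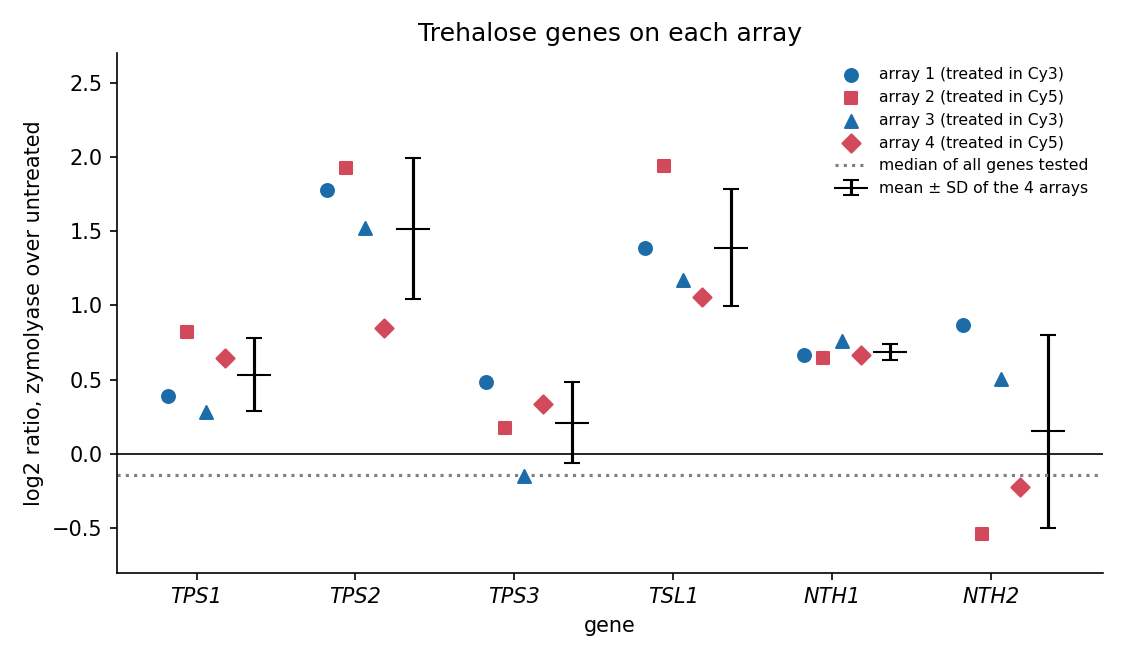
The log2 ratio of zymolyase-treated over untreated cells is plotted for each of the 6 measured genes, with a point per array coloured by the dye of the treated RNA and a bar for the mean ± SD of the 4 arrays. *TPS2* and *TSL1* lie highest, the 4 points of *NTH1* lie between 0.65 and 0.76, and those of *NTH2* lie on both sides of 0.

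Among the catalytic subunits of the synthase complex, *TPS2* read 1.78, 1.92, 1.52 and 0.85 on arrays 1 to 4. It was highest on arrays 1 and 2, lowest on array 4, and above 0 on all 4. Its mean was 1.52 ± 0.47 (SD over 4 arrays of 2 cultures, adjusted p = 4.15e-05 by limma), the 39th highest of the 3299 genes. This p-value follows mainly the size of the mean and not the likeness of the arrays, since standard errors were nearly equal over genes. For example, *YAR010C* read 3.37, 4.14, 0.10 and −0.52 on arrays 1 to 4 and had an adjusted p of 2.69e-05 (limma). *TPS1*, which encodes the enzyme of the preceding step, read 0.39, 0.82, 0.28 and 0.64. All 4 values were above 0, and the 2 highest were those of arrays 2 and 4, where treated RNA was in Cy5. The mean of *TPS1* was 0.53 ± 0.24 (SD, 4 arrays), which did not pass (limma, adjusted p = 0.473). Its 95% interval, from −0.01 to 1.08, leaves room for no change and for a doubling of the transcript.

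The regulatory subunits Tsl1 and Tps3 are large, related proteins, and only the gene of Tsl1 passed the test. *TSL1* read 1.39, 1.94, 1.17 and 1.06 on arrays 1 to 4, above 1 on every array. Its mean was 1.39 ± 0.39 (SD over 4 arrays, limma adjusted p = 7.96e-05). *TPS3* read 0.48, 0.18, −0.15 and 0.33, with array 3 below 0. Its mean of 0.21 ± 0.27 (SD, 4 arrays) did not pass (limma, adjusted p = 0.884), and the 95% interval ran from −0.33 to 0.75.

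Set against each other on the same array, *TSL1* was above *TPS3* by 0.90, 1.76, 1.32 and 0.72 on arrays 1 to 4, a mean difference of 1.18 ± 0.46 (SD, 4 arrays). *TPS2* was above *TPS1* by 1.39, 1.10, 1.24 and 0.21, a mean of 0.98 ± 0.53, with the smallest gap on array 4. *TPS2* and *TSL1* did not separate, since *TPS2* was the higher on 2 of the 4 arrays and the mean difference was 0.13 ± 0.29. Of 9 such pairs compared, 5 kept 1 direction on all 4 arrays, and an exact two-sided sign-flip test gave p = 0.125 for each of them. That is the smallest p that 4 arrays allow, and 2 cultures allow none under 0.5, so this test cannot pass any of them. Each of the 5 set *TPS2* or *TSL1* against a gene that was not called, so their count largely repeats the calls. Not every possible pair was compared.

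Of the trehalase genes, *NTH1* and *NTH2* were measured. *NTH1* read 0.66, 0.65, 0.76 and 0.67 on arrays 1 to 4, with a mean of 0.69 ± 0.05 (SD, 4 arrays). Only 0.364% of the genes tested, 12 in all with *NTH1* among them, had an SD as low. All intervals here use a standard error borrowed across genes, so this low SD does not narrow the interval of *NTH1*. *NTH1* did not pass (limma, adjusted p = 0.194), although its unadjusted p was 0.0132 and its 95% interval (0.14 to 1.23) lay above 0. It passed when each array was centred on its median (0.81, adjusted p = 0.0413 by limma), a step that raised the median of all genes by 0.127 and under which 2.64% of genes were called upward. It also passed with arrays 1 and 4 as the only pairing (limma, adjusted p = 0.0153), where 4.73% were.

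The paralog *NTH2* read 0.87, −0.54, 0.50 and −0.23 on arrays 1 to 4. It was above 0 on arrays 1 and 3, which had treated RNA in Cy3, and below 0 on arrays 2 and 4, which had it in Cy5. The mean was 0.15 ± 0.65 (SD, 4 arrays, limma adjusted p = 0.904), with a 95% interval from −0.39 to 0.69. By orientation, *NTH2* averaged −0.38 with treated RNA in Cy5 and 0.69 with it in Cy3, a half-difference of −0.54, and 6.58% of genes had one as large. The orientation term did not pass over all genes (limma, adjusted p = 0.331, unadjusted p = 0.0135). None of the 3299 genes passed there (limma), whereas 427 had an unadjusted p under 0.05. For the other 5 genes the half-differences between orientations were −0.13 for *TPS2*, 0.11 for *TSL1*, 0.20 for *TPS1*, 0.05 for *TPS3* and −0.03 for *NTH1*.

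The paralogs *NTH1* and *NTH2* share sequence, and the spots may not tell their transcripts fully apart. The part of cross-hybridisation was not tested. *NTH1* was above *NTH2* on 3 of 4 arrays, by 0.53 ± 0.63 on average (SD), so the gap was smaller than its spread. *ATH1* shared its blanks on all 4 arrays with 14.2% of the genes in the table, so nothing was measured of the acid trehalase.

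By order of the means, *TPS2* (1.52) and *TSL1* (1.39) were followed by *NTH1* (0.69), *TPS1* (0.53), *TPS3* (0.21) and *NTH2* (0.15). The step between *TSL1* and *NTH1* was 0.70 ± 0.42 and was above 0 on all 4 arrays. That between *NTH1* and *TPS1* was within its spread, since *TPS1* minus *NTH1* was −0.15 ± 0.28, and *TPS1* exceeded *TPS3* on 3 of 4 arrays, by 0.32 ± 0.31. The genes above 0 on all 4 arrays were *TPS1*, *TPS2*, *TSL1* and *NTH1*, which is 4 of 6, beside 6.15% of all genes tested.

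Because the arrays differed in median and spread, each gene was also ranked within each array among the 3299 genes. *TPS2* held the 98.9th, 98.1st, 98.7th and 98.2nd percentile on arrays 1 to 4. The low log ratio of *TPS2* on array 4 therefore stood as high in that array as its larger values stood in the others. *TSL1* held between the 97.8th and the 98.8th percentile and *NTH1* between the 89.7th and the 97.2nd. *TPS1* lay at the 94.0th and 97.1st percentile on arrays 2 and 4, but at the 79.4th and 76.9th on arrays 1 and 3. *TPS3* ranged from the 41.0th to the 92.3rd percentile and *NTH2* from the 24.9th to the 94.3rd.

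**Figure D2:**
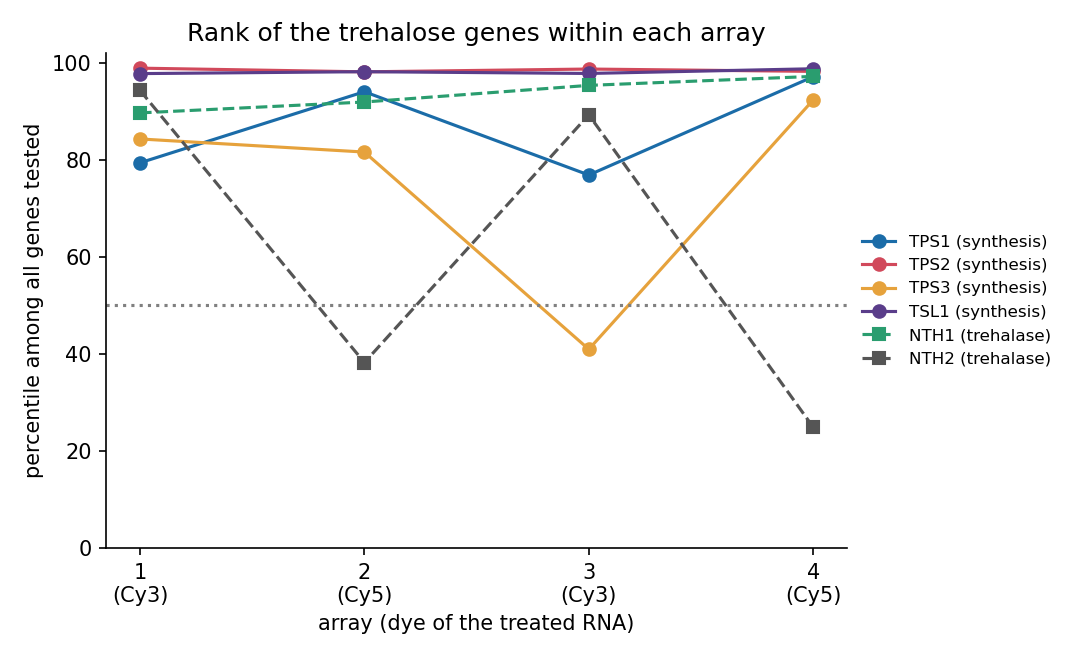
The percentile of each gene's log2 ratio among the 3299 genes tested is plotted for each array, with the dye of the treated RNA under the array number and lines that only join the points of 1 gene. *TPS2* and *TSL1* stay above the 97th percentile on every array, and *NTH2* swings with the dye, down to the 24.9th percentile on array 4.

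Without array 4, *TPS2* and *TSL1* kept their size but were no longer called, at 1.72 (limma, adjusted p = 0.0539) and 1.44 (limma, adjusted p = 0.0629), and 5 genes were called in all. Both were called without array 1, 2 or 3. When arrays were centred and scaled to 1 spread, the estimates were 1.64 for *TPS2* and 1.57 for *TSL1*, with adjusted p-values of 0.0538 and 0.0552 (limma), and 2 genes were called in all, both upward, against 91 upward and 46 downward as deposited.

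**Figure D3:**
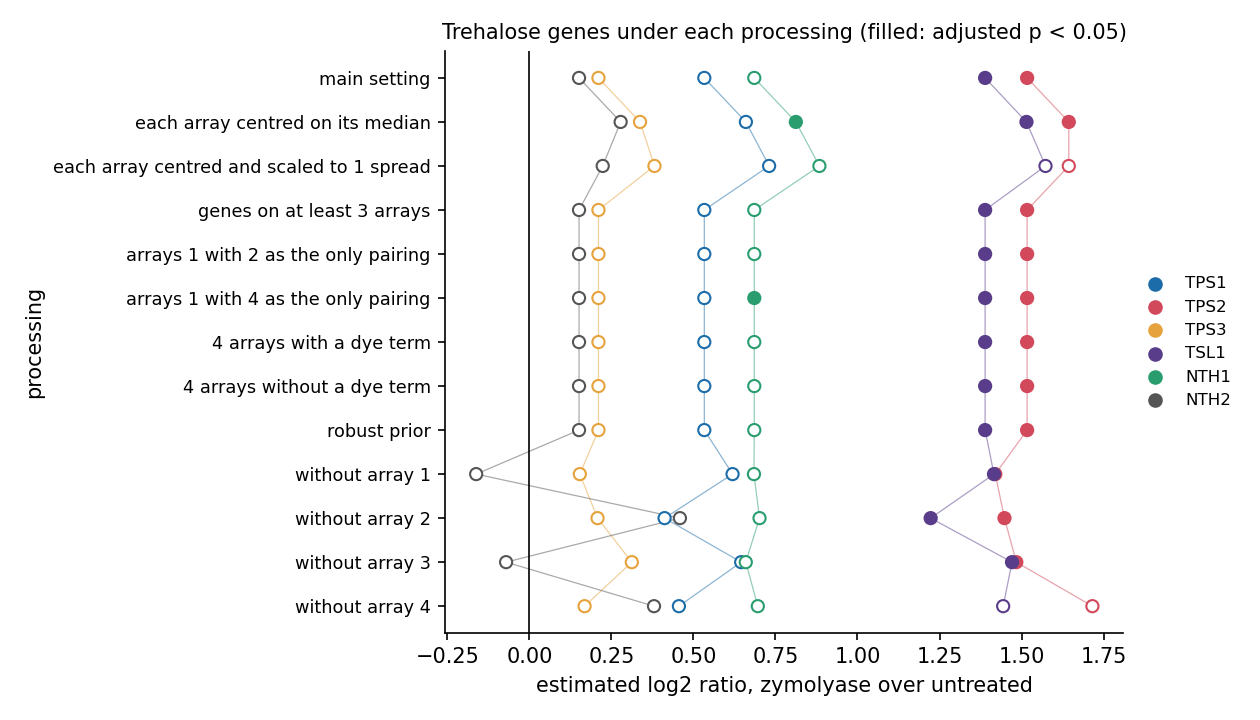
The estimated log2 ratio of each gene is plotted along the horizontal axis under the main processing and 12 others, named on the vertical axis, and filled points have an adjusted p under 0.05. *TPS2* and *TSL1* stay between 1.22 and 1.72 throughout, and *NTH2* falls below 0 without array 1 and without array 3.

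The steps that feed trehalose synthesis were read next, from glucose phosphorylation to UDP-glucose. Of 6 genes for these steps, 0 passed in either direction (limma, 1 at an unadjusted p under 0.05), with a list median of 0.41. *PGM2*, which encodes the main phosphoglucomutase and so links glucose 6-phosphate to UDP-glucose, read 0.81, 0.79, 1.29 and 0.48, or 0.84 ± 0.33 (SD, 4 arrays, limma adjusted p = 0.0539). Its paralog *PGM1* averaged 0.02 ± 0.22. *UGP1*, the gene of UDP-glucose pyrophosphorylase, averaged 0.51 ± 0.19 and was above 0 on every array. The hexose kinase genes averaged 0.41 ± 0.45 for *GLK1*, 0.40 ± 0.23 for *HXK1* and 0.01 ± 0.37 for *HXK2*.

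Among 4 genes tied to the control of neutral trehalase, 1 passed, upward, beside 2.76% of all genes. *DCS2* read 0.48, 0.90, 1.41 and 1.05 on arrays 1 to 4 and rose by 0.96 ± 0.38 (SD, 4 arrays, limma adjusted p = 0.0161). The call was lost without any single array (limma, adjusted p = 0.126 to 0.237) and with arrays scaled to 1 spread (adjusted p = 0.139). Its paralog *DCS1*, which encodes the scavenger decapping enzyme, averaged 0.81 ± 0.53 and did not pass (limma, adjusted p = 0.0676). *BMH1* and *BMH2* encode the phosphoprotein-binding partners of phosphorylated Nth1. *BMH1* averaged −0.06 ± 0.08, and *BMH2* read 0.74, −1.53, 0.35 and −0.21, above 0 where treated RNA was in Cy3 and below 0 where it was in Cy5, as *NTH2* was.

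Protein kinase A, which activates Nth1, and its upstream Ras and cyclic AMP genes gave 0 calls among 9 tested (limma, 0 at an unadjusted p under 0.05), with a list median of −0.04. *BCY1*, the regulatory subunit gene, averaged 0.11 ± 0.32. Of the 12 genes listed, those with blanks were not tested. *CYR1* read −0.32, −1.19 and −0.35 on arrays 1, 2 and 4, where *PDE1* read 0.16, −0.39 and 0.55. *CDC25* read −0.36 and −0.10 on arrays 1 and 4. Among the 9 tested, the largest means in size were those of *IRA1*, a Ras inhibitor gene, at 0.42 ± 1.01, and *RAS1*, at −0.41 ± 0.24. *IRA1* ranged from −0.55 to 1.75 over the arrays. Of 10 genes for transcription factors and kinases of stress and nutrient control, 2 had values on all 4 arrays and neither passed (limma). These were *GIS1*, at −0.22 ± 0.41, and *HOG1*, at 0.21 ± 0.29. *MSN4*, *MSN2* and *HSF1* were blank on array 2. On arrays 1, 3 and 4, *MSN4* read 0.67, 0.62 and 0.61, and *MSN2* read 0.71, 0.31 and 0.28. *HSF1* read −0.04, −0.83 and −0.15 there. *RIM15*, blank on array 3, read −0.02, −0.92 and −0.29 on arrays 1, 2 and 4. *YAK1*, *SCH9*, *SKO1* and *HOT1* also had blanks, and each had values on both sides of 0.

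Glycogen, the other storage carbohydrate of yeast, is also made from UDP-glucose. Of 6 glycogen genes tested, out of 15 listed, 1 passed, upward, beside 2.76% of all genes, with a list median of 0.08. *GSY2*, the gene of the main glycogen synthase, rose by 0.95 ± 0.28 (SD, 4 arrays, limma adjusted p = 0.0175). This call, too, was lost without any single array (limma, adjusted p = 0.0513 to 0.410) and with scaling (adjusted p = 0.0624). The branching enzyme gene *GLC3* averaged 0.40 ± 0.15, and *GSY1*, the other synthase gene, averaged 0.14 ± 0.30. The rest of those tested were *PCL6* (−0.40 ± 0.51), *PIG2* (−0.15 ± 0.35) and *PCL7* (0.01 ± 0.04). Listed genes with blanks were not tested. The median log2 ratio of the 4 trehalose synthesis genes was 0.96, and the difference between these lists was not tested.

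Of 17 tested targets of Msn2 and Msn4 from a general stress list, 8 rose and none fell. Over all genes the shares were 2.76% upward and 1.39% downward, and the list median was 0.84. This list was chosen with earlier results of these data known, and its count was not tested against that background. Without array 4, 1 of the 17 was called, *HSP12* (limma, adjusted p = 0.0319), and with arrays scaled to 1 spread 0 were (limma, 14 at an unadjusted p under 0.05). The leading one was *HSP12*, which encodes a small membrane stress protein, at 3.37 ± 0.71 (SD, 4 arrays). It was followed by *DDR2* (2.55 ± 0.61), *SPI1* (1.72 ± 0.80) and *GPD1* (1.67 ± 0.13), the gene of the first enzyme of glycerol synthesis. *ALD3* (1.54 ± 0.31), *MSC1* (1.53 ± 0.22), *HOR2* (1.31 ± 0.32) and *GAD1* (1.08 ± 0.42) also rose, and the limma adjusted p-values of these 8 lay between 2.37e-07 and 0.00341. *PGM2* belongs to this list as well. The means of *TPS2* (1.52) and *TSL1* (1.39) lay between those of *MSC1* and *HOR2*. The heat shock gene *SSA4* averaged −0.26 ± 0.42 and did not pass. *HSP26*, a small heat shock protein gene, was blank on array 4 and so not tested, and read −0.64, −0.53 and −0.72 on arrays 1 to 3. *HSP104* encodes a disaggregase that acts beside trehalose in heat tolerance. It was blank on array 2 and read 0.29, −0.48 and −0.22 on arrays 1, 3 and 4. *HSP42* averaged 0.33 ± 0.52 and did not pass (limma, adjusted p = 0.815). Other genes of the list were blank on arrays 1 and 2. On arrays 3 and 4, *CTT1* read 1.54 and 1.05, *RTN2* 1.57 and 1.18, and *HSP78* 0.12 and −0.12.

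**Figure D4:**
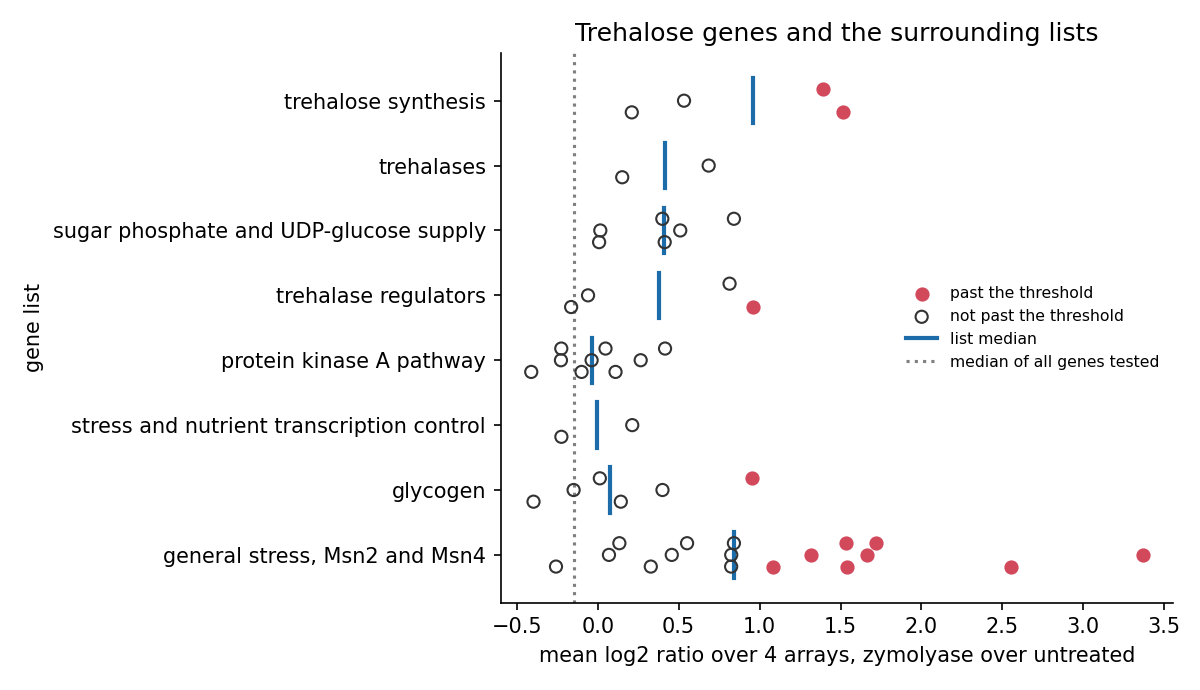
The mean log2 ratio over 4 arrays of each tested gene is plotted by gene list, with filled points for genes past the threshold, a vertical bar for the list median and a dotted line for the median of all genes tested. The calls lie in the synthesis, trehalase regulator, glycogen and general stress lists, all of them upward.

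The genes with log ratios most like those of each trehalose gene were listed by root mean square difference over the 4 arrays, among the other 3298 genes. The gene nearest to *TPS2* was *TSL1* (0.28), followed by the transglycosylase gene *CRH1* (0.32) and the cell wall protein gene *HSP150* (0.33). *TSL1* was nearest to *CRH1* (0.12), *HSP150* (0.19) and *YIL108W* (0.24), with *TPS2* in 4th place. *CRH1* read 1.46, 2.07, 1.13 and 1.23 on arrays 1 to 4, which shows how close the match with *TSL1* was.

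Genes with smaller changes had more neighbours at such distances. *TPS1* lay nearest to the vacuolar protease gene *PEP4* (0.15), *YOX1* (0.15) and *IPT1* (0.16), with *NTH1* in 33rd place. *NTH1* lay nearest to the acyl-CoA synthetase gene *FAA1* (0.14), *YNL208W* (0.15) and the aconitase gene *ACO1* (0.16), with *TPS1* in 21st place. *TPS3* lay nearest to *ABP1* (0.05), *CAP2* (0.08) and *ARC35* (0.08), all genes of the actin cytoskeleton, and 172 genes lay within 0.3 of it. *NTH2* lay nearest to *NOP53* (0.05), *GCD6* (0.08) and *RPN3* (0.10), each also above 0 on arrays 1 and 3 and below 0 on arrays 2 and 4, and 142 genes lay within 0.3 of it. These likenesses rest on 4 arrays that share their dyes and normalization and carry no test.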

How the data were processed

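Two-colour arrays were read as deposited. Per the labels, each array carried treated and untreated RNA in opposite dyes. The authors deposited 1 log ratio per open reading frame and array, taken here as log2. The sources used here do not give its base, numerator or normalization. Of 6209 rows, 2 controls were left out. The other rows were named through a RefSeq table (assembly R64): 5654 by locus tag, 57 by synonym and 496 by neither. Rows of 1 gene were averaged, and genes with values on all 4 arrays were tested (3299 of 6172). Between orientations, Pearson correlations across genes were 0.127 to 0.392 and Spearman −0.0773 to 0.138. Within an orientation they were higher, with Pearson 0.485 for arrays 1 and 3 and 0.42 for arrays 2 and 4. The Spearman values there were 0.41 and 0.393, so gene ranks were more alike within a dye orientation than between orientations. All arrays were read as running in 1 direction. This rests on the anchor genes and less on ranks.

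The 2 arrays of a culture were averaged under each of the 2 possible pairings, and the culture means were tested against 0 with limma 3.58.1 in R 4.3.3 (lmFit, eBayes). Of both pairings the larger p and the larger standard error were used, and p-values were adjusted by Benjamini-Hochberg over all genes. The spread is borrowed across genes, so standard errors were nearly equal (median 0.276, range 0.276 to 0.416), and the threshold is close to a rule of size. With arrays 1 and 2 paired, the fit borrowed the spread fully, so every gene had the same standard error there. Printed SDs are over 4 arrays.

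The procedure was tested on simulated data. These had equal noise on every array, unlike the arrays here, so that test does not cover arrays of unequal spread. Members and lists were chosen with earlier results of these data known. All members were named, with each list's called genes or its largest means, and the 3 nearest profiles. Other list genes (*PGM1*, *HXK2*, *DCS1*, *BMH1*, *BMH2*, *BCY1*, *CYR1*, *CDC25*, *PDE1*, *GSY1*, *GLC3*, *PCL6*, *PIG2*, *PCL7*, *SSA4*, *HSP26*, *HSP42*, *HSP78*, *HSP104*, *CTT1*, *RTN2*, *MSN2*, *MSN4*, *HSF1*, *RIM15*, *YAK1*, *SCH9*, *SKO1*, *HOT1*, *FKS2*) were named after their values were seen, as was *YAR010C*. Promoter and protein sequences were not analysed here. Alternatives were centring, scaling, blanks, pairing, dye term, prior, threshold and each array left out.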

Additional observations from a re-analysis of the deposited data

Results flagged for a closer look

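Each of the 6 measured trehalose genes, and each gene of the other lists that passed, was read for an array far from the other 3. There were 25 genes in all. A gene counted where the distance of its highest or lowest array to the next one, as a share of the whole range, exceeded Dixon's 95% critical value. About 5% of groups exceed it by chance if samples are independent, which dye swaps of 2 cultures are not. In 1 gene an array stood apart, the anchor gene *PST1*, which read 1.07 on array 1 and 1.65 to 1.73 on the others. None of the 6 measured trehalose genes had such an array. *NTH1* came closest, with a share of 0.820 for array 3, where its whole range was from 0.65 to 0.76.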

How the results depend on the processing

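The culture of each array, the log base and the spot brightness are not known, and 4 arrays limit every call. Of 14 alternatives for each gene, *TPS2* and *TSL1* kept their call in 12, and lost it without array 4 and when arrays were centred and scaled. Some of the 12 could not remove a call. A main call already requires both pairings, so either pairing alone keeps it, as does the looser threshold. Both genes were also seen above 0 on all 4 arrays before calls were restricted to 1 direction. *TPS1* and *TPS3* were called in none (limma, lowest adjusted p 0.0561 and 0.424), and *NTH1* in 2, with centring and with arrays 1 and 4 as the only pairing. *NTH2* turned below 0 without array 1 (−0.16) and without array 3 (−0.07), ranged from −0.16 to 0.46 without single arrays, and was called in none (limma, lowest adjusted p 0.429). Trehalose genes past the threshold numbered 2 (0 with scaling, against 4 at an unadjusted limma p under 0.05, and 0 to 2 without single arrays, with 0 without array 4). Genes of the other lists, without the anchors, numbered 10 of 43 (0 with scaling, against 21 unadjusted by limma, and 1 to 8 without single arrays, with 1 without array 4 and 6 without array 1). Over all genes the count was 137, against 2 with scaling (2 upward, 0 downward, 396 unadjusted by limma), 306 with arrays 1 and 4 as the only pairing, 65 without a dye term on 4 arrays, and 5 to 101 without single arrays (5 without array 4, 47 without array 1, 73 without array 2). Restricting calls to 1 direction on all 4 arrays was chosen after seeing the data, as was the orientation test. The restriction left both trehalose calls, and 104 of the 137 calls over all genes. The cause of these differences was not tested. Each log ratio is already a pair of treated and untreated RNA, and both ways of pairing arrays into cultures are among the values above.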
